A study of Homo sapiens with 4 samples.

Results

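The lysosomal cathepsins examined here are 10 human genes, CTSA, CTSB, CTSC, CTSD, CTSF, CTSH, CTSK, CTSL, CTSS and CTSZ, chosen by name out of the 48162 genes measured. Of these, 9 stand in the deposited values under these symbols; CTSL stands under its older symbol CTSL1 and was matched by its identifier, ENSG00000135047. The data are RNA sequencing libraries of MDA-MB-231, an established human breast cancer line grown in culture. In 2 libraries the cells had received MGH-CP1, a small molecule that binds the lipid pocket of the TEAD transcription factors and blocks their palmitoylation, at 10 µM for 24 h according to the sample labels (the methods give the unit as mM), and in 2 libraries the vehicle control for the same time. The libraries were made from poly-A selected RNA of this single line, and no source used here says whether they came from separate cultures, so every p-value measures the spread between these libraries, which may be technical.

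Cathepsins are proteases of the lysosome, the acidic compartment in which cells break down proteins. They are made as inactive precursors, most are tagged with mannose 6-phosphate in the Golgi and carried to the lysosome, and they are activated there by cleavage. CTSD is an aspartic protease and CTSA a serine carboxypeptidase that also shields the sialidase NEU1, while the other 8 are cysteine proteases of the papain family, which cystatins inhibit. In breast cancer, CTSD is a known secreted protein, and CTSB and CTSL have been studied for their cleavage of extracellular matrix.

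The libraries held 25455533 and 25508824 fragments on genes for the vehicle control and 17997221 and 17577930 for MGH-CP1, so depth was lower in both treated libraries. The TEAD–YAP target genes CYR61, CTGF and ANKRD1 all fell, with log2 fold changes of -0.75, -0.66 and -0.66. Of the markers of the line, VIM was between 259 and 281 FPKM and CD44 between 198 and 221 FPKM, while AXL and EGFR fell, with log2 fold changes of -0.76 and -0.46. Among the luminal breast markers, ESR1, PGR and FOXA1 were below 0.03 FPKM in every library, whereas EPCAM (12.4 to 16.4 FPKM) and GATA3 (4.17 to 5.65 FPKM) were detected. Because several cathepsins are abundant in macrophages, 7 myeloid markers were read as well: AIF1, TYROBP and CD163 were listed at 0 in every library, PTPRC reached at most 0.0321 FPKM and ITGAM 0.0603 FPKM. The remaining myeloid markers, CSF1R and CD14, rose by 0.76 and 0.59 on the log2 scale. CSF1R had 1.27 and 1.24 FPKM in the vehicle control and 2.83 and 2.80 FPKM after MGH-CP1. CD14 had 2.44 and 1.79 FPKM in the vehicle control and 4.07 and 3.29 FPKM after MGH-CP1. The summed level of the 7 markers was 3.05 to 3.73 FPKM in the vehicle control and 6.18 to 6.94 FPKM after MGH-CP1. CSF1R and CD14 made up nearly all of this sum.

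All 10 cathepsins were detected in MDA-MB-231 cells. In FPKM, which divides fragments by library total and by a single length for each gene, they followed the same order in each of the 4 libraries. From the highest level to the lowest they ran CTSD, CTSZ, CTSB, CTSA, CTSL, CTSF, CTSC, CTSH, CTSS and CTSK. This order also depends on the lengths used, such as 6125 bases for CTSC and 2177 for CTSL. Whether these lengths fit the transcripts made here was not tested. By fragments, CTSB was above CTSZ in every library, with 11119 against 9520 in vehicle control replicate 1. The mean levels in the vehicle control were 298 FPKM for CTSD, 251 FPKM for CTSZ, 113 FPKM for CTSB, 107 FPKM for CTSA and 36.2 FPKM for CTSL. Below these, CTSF had 27.2 FPKM, CTSC 22.2 FPKM, CTSH 10.4 FPKM, CTSS 4.83 FPKM and CTSK 0.673 FPKM. No pair of neighbours in this order overlapped between the replicates of a group, although CTSB was only 1.05 times as high as CTSA in the vehicle control and 1.09 times after MGH-CP1. The distance from CTSD to CTSK was 444-fold in the vehicle control and 453-fold after MGH-CP1.

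**Figure D1:**
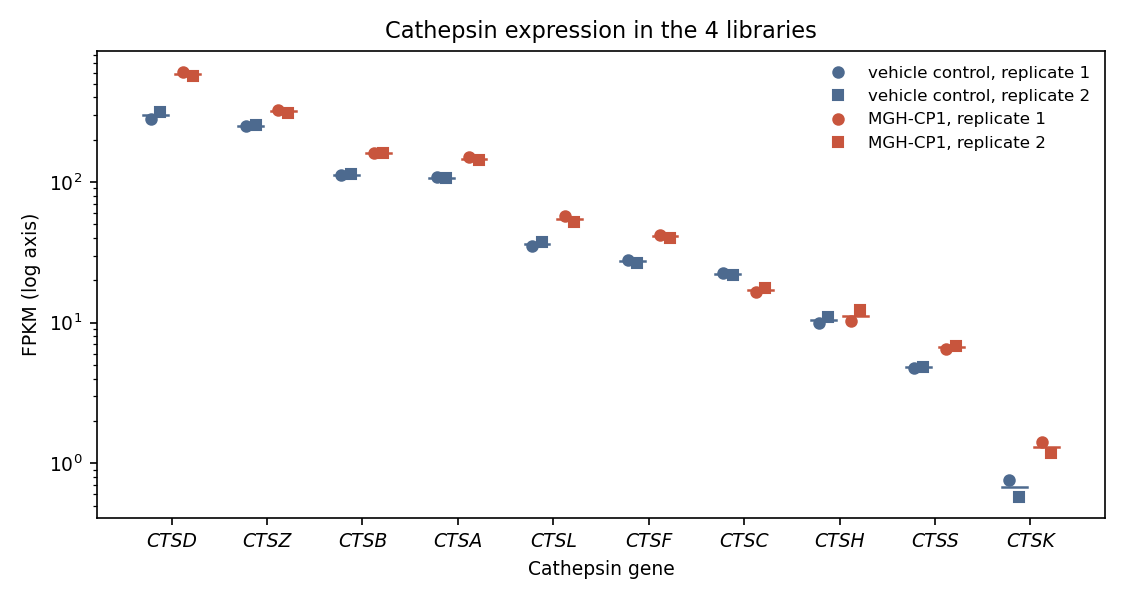
FPKM of the 10 cathepsin genes (log axis) in the 2 vehicle control libraries (blue) and the 2 MGH-CP1 libraries (red); circles and squares are replicates 1 and 2 and the lines are group means (n = 2). The order of the genes is the same in every library, CTSC is the only gene whose red points lie below the blue ones, and the points of CTSH overlap.

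After MGH-CP1 most cathepsin transcripts rose, CTSD by the largest fold of those tested, to 1.96 times its control level. CTSA, CTSB, CTSF, CTSL, CTSS and CTSZ rose to between 1.26 and 1.51 times theirs. CTSC, the dipeptidyl peptidase that activates serine proteases of immune cells, fell to 0.770 of its control level, and CTSH did not pass the test. In bulk RNA, a change in the share of cells that make a transcript and a change in its amount per cell cannot be told apart. A gene is called when its adjusted p is below 0.05 in limma, a linear model that shares variance between genes, fitted to log2(FPKM + 1) of the 12080 genes with a mean of at least 1 FPKM over the 4 libraries. Of the 10 cathepsins, 9 passed this minimum, CTSK being just below it; 7 of the 9 were called higher and 1 lower. Among all genes tested, 27.1% were called higher and 23.8% lower, so a call by itself was common in these libraries. The median log2 fold change of the 9 cathepsins was 0.45, and that of all genes tested was 0.01. For 8 of the 10 cathepsins, CTSK included, the treated values both exceeded the control values, and for CTSC both lay under them; 39.8% and 37.4% of all genes tested did the same. For a single gene, an exact permutation test of 2 libraries against 2 cannot go below p = 0.33 (two-sided), so each call rests on the variance shared between genes.

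MiT/TFE factors, which drive transcription of lysosomal genes, bind the CLEAR element, an E-box with the core CACGTG, and TEAD factors bind an element with the core GGAATG, so the promoters of the cathepsins were read for both. RefSeq promoter windows of 300 bases, from 250 bases before to 50 bases after the gene start (GRCh38.p14), were at hand for 7 of the 10 genes. The E-box core was found in 3 of these 7, CTSD, CTSA and CTSF, and in 7.26% of all 35116 windows; in each of the 3 it also occurred with a flanking T, as TCACGTG on either strand, which 3.71% of all windows hold and which overlaps the core. GGAATG, searched on both strands, was in 0 of the 7 and in 14% of all windows. The 3 windows with an E-box core are shown with that of CTSC, the gene that fell, in gene orientation with each E-box core in capitals.
CTSD, chr11:1763878-1764177, minus strand: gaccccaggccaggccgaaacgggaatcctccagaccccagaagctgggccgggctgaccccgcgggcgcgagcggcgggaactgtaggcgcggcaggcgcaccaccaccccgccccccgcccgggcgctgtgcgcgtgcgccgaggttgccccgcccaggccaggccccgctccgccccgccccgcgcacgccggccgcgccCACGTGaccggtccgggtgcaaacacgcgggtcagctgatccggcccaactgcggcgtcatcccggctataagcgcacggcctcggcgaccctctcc
CTSA, chr20:45891085-45891384, plus strand: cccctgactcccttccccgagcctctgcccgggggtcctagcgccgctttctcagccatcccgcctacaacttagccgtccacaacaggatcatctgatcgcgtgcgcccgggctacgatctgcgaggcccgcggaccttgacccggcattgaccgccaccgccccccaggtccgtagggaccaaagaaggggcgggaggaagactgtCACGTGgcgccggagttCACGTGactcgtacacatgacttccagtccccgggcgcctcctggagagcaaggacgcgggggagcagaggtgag
CTSF, chr11:66568557-66568856, minus strand: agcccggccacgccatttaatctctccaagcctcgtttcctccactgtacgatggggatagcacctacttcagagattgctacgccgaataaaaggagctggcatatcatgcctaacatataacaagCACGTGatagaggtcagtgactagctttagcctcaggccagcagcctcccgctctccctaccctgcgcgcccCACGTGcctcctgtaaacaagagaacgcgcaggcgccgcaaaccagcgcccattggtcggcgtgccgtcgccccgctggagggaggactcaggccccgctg
CTSC, chr11:88337687-88337986, minus strand: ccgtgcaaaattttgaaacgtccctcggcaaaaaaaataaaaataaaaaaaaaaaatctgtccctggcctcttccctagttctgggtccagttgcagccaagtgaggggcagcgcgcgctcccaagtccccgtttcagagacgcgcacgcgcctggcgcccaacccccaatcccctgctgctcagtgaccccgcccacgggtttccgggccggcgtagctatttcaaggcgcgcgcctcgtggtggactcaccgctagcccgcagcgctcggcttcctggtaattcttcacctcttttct

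The E-box core begins 47 bases before the gene start in CTSD, 42 and 25 bases before it in CTSA and 123 and 51 bases before it in CTSF. CTSL and CTSZ, which were called higher, have no CACGTG in their windows, and neither do CTSC, which was called lower, and CTSH, which was not called. These matches describe letters in a window; no binding was measured in these libraries.

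CTSD (ENSG00000117984), the aspartic protease and the most abundant of the family, spans 1773982 to 1785222 of chromosome 11, minus strand (hg19, the build in the submitters' processing notes). Its level was 282 and 315 FPKM in the vehicle control libraries and 606 and 566 FPKM in the MGH-CP1 libraries. The treated libraries were well above both controls. The ratio of the group means was 1.96, and limma gave a log2 fold change of 0.97 ± 0.06 (SE), a 95% interval of 0.82 to 1.12 and an adjusted p of 3.09e-05. Of all genes tested, 1.89% rose more. CTSD rests on 15232 to 23151 fragments per library. AC068580.6, a gene on the opposite strand that overlaps CTSD over 2139 bases, held 60 to 137 fragments, and AC068580.5, on the same strand, 44 to 117; whether counting used the strand is not given in the sources used here. The study lists CTSD among genes raised in common by TEAD–YAP/TAZ blockade, a list drawn partly from these libraries, so its rise here is not independent of that list.

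CTSA (ENSG00000064601) is the serine carboxypeptidase of the family and holds the lysosomal enzymes NEU1 and GLB1 in a complex (chromosome 20, 44519591 to 44527459, plus strand, hg19). It measured 108 and 107 FPKM in the vehicle control libraries and 151 and 142 FPKM after MGH-CP1. The controls were almost equal, and both treated libraries were higher. It overlaps 2 genes on the opposite strand, PLTP over 61 bases and NEURL2 over 336 bases. PLTP held 136 to 176 fragments and NEURL2 18 to 32, against at least 5476 for CTSA. In limma the log2 fold change was 0.45 ± 0.05 (SE) with an adjusted p of 2.26e-04, a ratio of 1.37 between group means. Of its partners, NEU1 rose by a similar amount, from 16.5 and 17.1 FPKM to 24.3 and 23.1 FPKM (log2 fold change 0.47, adjusted p = 3.93e-04 from limma), while GLB1 had 37.7 and 36.7 FPKM in the controls and 39.4 and 38.1 FPKM after MGH-CP1 and was not called (log2 fold change 0.06, 95% interval -0.06 to 0.17).

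Among the cysteine proteases of the 10 genes, the endopeptidases CTSL and CTSF had the highest fold changes of those tested. CTSL, a general endopeptidase of the lysosome (chromosome 9, 90340434 to 90346308, plus strand, hg19), had 35.1 and 37.3 FPKM in the controls and 57.2 and 51.8 FPKM after MGH-CP1. CTSF, whose precursor carries an unusually long propeptide with a cystatin-like part (chromosome 11, 66330934 to 66336312, minus strand), had 27.9 and 26.5 FPKM in the controls and 42.3 and 39.9 FPKM after MGH-CP1. Both genes had a log2 fold change of 0.58 ± 0.06 (SE; limma adjusted p of 2.13e-04 for CTSL and 1.27e-04 for CTSF) and group-mean ratios of 1.51. The table also lists 8 pseudogenes of CTSL, of which 1 held any fragment, at no more than 0.10 FPKM in a library.

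CTSB and CTSZ, the 2 most abundant cysteine cathepsins, differ in how they cut: CTSB has both endopeptidase and dipeptidyl carboxypeptidase activity, and CTSZ removes single residues from the carboxyl end. CTSB was the most even gene between replicates, with 113 and 113 FPKM in the controls and 161 and 159.9 FPKM after MGH-CP1. It rose by 0.50 ± 0.04 (SE) on the log2 scale, with a limma adjusted p of 8.46e-05. CTSZ (chromosome 20, 57570240 to 57582302, minus strand, hg19) went from 250.2 and 253 FPKM to 327 and 308 FPKM, a rise of 0.33 ± 0.05 (SE) on the log2 scale with a limma adjusted p of 8.87e-04. The call for CTSZ held with quantile normalization, but its log2 fold change was then 0.20.

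CTSS, which trims the invariant chain CD74 in antigen-presenting cells, was a low-level gene here with 480 to 509 fragments per library. Its FPKM was 4.79 and 4.86 in the controls and 6.49 and 6.84 after MGH-CP1, so the groups did not overlap (log2 fold change 0.40 ± 0.08 SE, limma adjusted p = 0.00324). CD74 itself stood at 265 and 262 FPKM in the controls and 358 and 347 FPKM after MGH-CP1 (log2 fold change 0.42, adjusted p = 2.14e-04 from limma). CTSK, the collagen-degrading cathepsin of osteoclasts, had only 25 to 43 fragments per library. Its FPKM was 0.766 and 0.579 in the controls and 1.41 and 1.18 after MGH-CP1, a ratio of 1.92, and the gene fell just short of the mean of 1 FPKM needed for the test. When no minimum was set, its log2 fold change was 0.46 and its adjusted p 0.0814 from limma. The myeloid markers CSF1R and CD14 moved in the same direction as these 2 low-level genes. Of the other myeloid markers, AIF1, TYROBP and CD163 were at 0, PTPRC reached at most 0.0321 FPKM and ITGAM 0.0603 FPKM. The libraries are of a cultured breast cancer line, and whether any myeloid cells added to the values of CTSS and CTSK was not tested.

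CTSC and CTSH are both exopeptidases that act mainly on the amino end of proteins, and neither was called higher. CTSC (chromosome 11, 88026760 to 88070955, minus strand, hg19) had 22.6 and 21.8 FPKM in the controls and 16.5 and 17.8 FPKM after MGH-CP1. Both treated libraries were below both controls, and the log2 fold change of CTSC was -0.36 ± 0.06 (SE; limma adjusted p = 0.00183). CTSH (chromosome 15, 79213400 to 79241916, minus strand) had 9.92 and 10.9 FPKM in the controls and 10.3 and 12.2 FPKM after MGH-CP1. Its groups overlapped, and the log2 fold change of 0.10 was near its standard error of 0.09 (adjusted p = 0.393 from limma). The 95% interval of CTSH ran from -0.11 to 0.31 and so contained both small falls and small rises; whether its change differed from those of the other cathepsins was not tested.

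**Figure D2:**
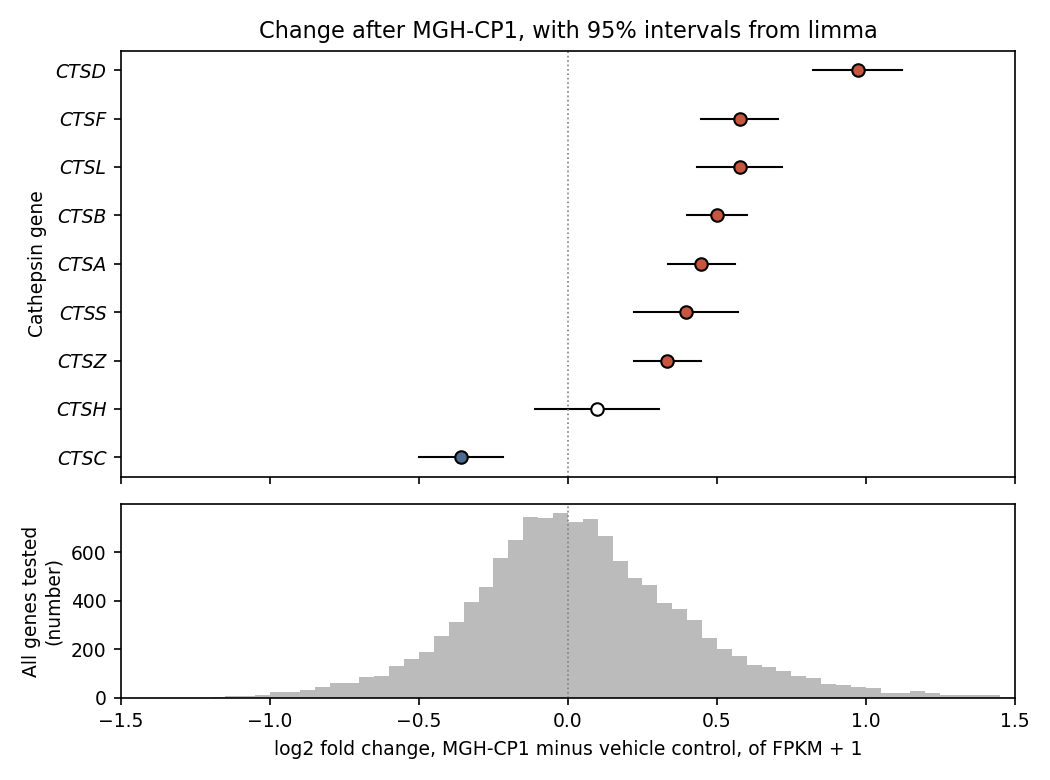
Upper panel, log2 fold change of log2(FPKM + 1) after MGH-CP1 for the 9 cathepsins tested, with 95% intervals from limma; red, called higher, blue, called lower, white, not called. Lower panel, number of genes at each log2 fold change among all 12080 tested, with a median of 0.01; the axis leaves out 37 genes that rose by more than 1.5, and no gene lies below -1.5. CTSD lies far to the right of the bulk of all genes and CTSC to the left of 0.

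Summed over the 10 genes, the cathepsin transcripts reached 854 and 890.0 FPKM in the vehicle control libraries and 1379 and 1306 FPKM after MGH-CP1, a ratio of 1.54 between group means. The family took 0.200% ± 0.00520 (SD, n = 2) of all fragments in the controls and 0.302% ± 0.00987 (SD, n = 2) after MGH-CP1. Without CTSD, the other 9 genes summed to 572 and 575 FPKM in the controls and 773 and 739.9 FPKM after treatment, a ratio of 1.32.

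The make-up of the family also shifted towards the aspartic protease. CTSD was 33.0% and 35.4% of the family sum in the controls and 43.9% and 43.3% after MGH-CP1. The 8 cysteine cathepsins together went from 54.4% and 52.6% to 45.1% and 45.8%, although their summed level rose from 464 and 468 FPKM to 622 and 597 FPKM. CTSZ was 29.3% and 28.4% of the sum in the controls and 23.7% and 23.6% after MGH-CP1. CTSA was 12.6% and 12.0% of the sum in the controls and 10.98% and 10.9% after treatment, and CTSB 13.2% and 12.7% against 11.7% and 12.2%. In each of these 5 shares the 2 groups did not overlap. These shares are parts of the same sum, and CTSZ and CTSB are among the 8 cysteine cathepsins, so they are not separate observations. The share of CTSL overlapped, with 4.12% and 4.19% in the controls and 4.15% and 3.97% after MGH-CP1. So did that of CTSF, with 3.27% and 2.98% against 3.07% and 3.06%.

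**Figure D3:**
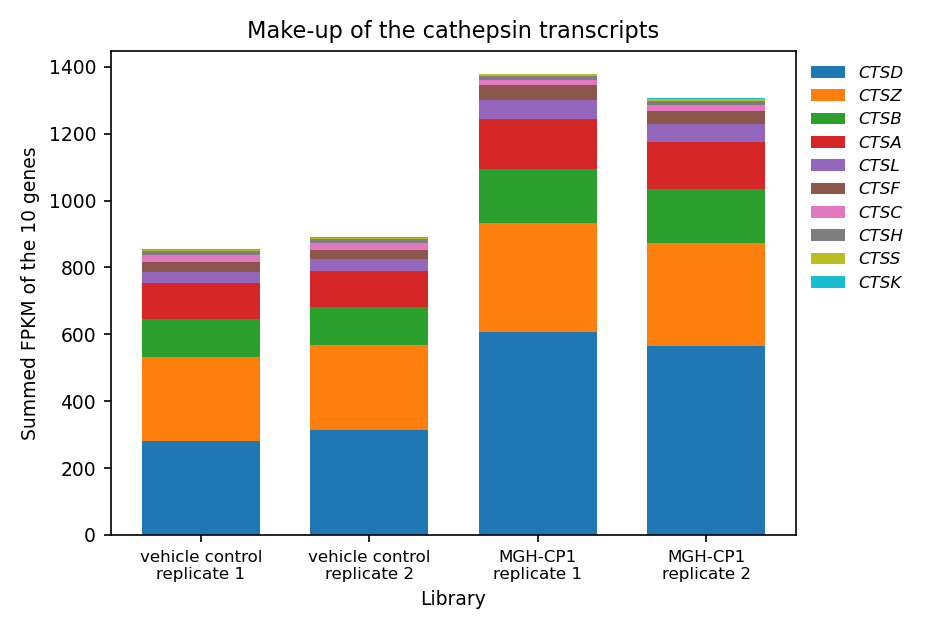
Summed FPKM of the 10 cathepsin genes in each library, stacked by gene from CTSD at the bottom to CTSK at the top. The bars reach 854 and 890.0 FPKM in the vehicle control and 1379 and 1306 FPKM after MGH-CP1, and the CTSD segment grows most, from 282 and 315 FPKM to 606 and 566 FPKM.

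Of 11 other lysosomal peptidases listed, 7 were tested, 3 of them were called higher and 0 lower, with a median log2 fold change of 0.29. With so few genes and 27.1% of all genes called higher and 23.8% lower, this count is close to the background. CTSO, a further papain-type cathepsin, rose from 3.19 and 3.01 FPKM to 5.87 and 4.95 FPKM (log2 fold change 0.64, adjusted p = 0.00108 from limma). The serine carboxypeptidase SCPEP1 rose by 0.56 and the tripeptidyl peptidase TPP1 by 0.41 on the log2 scale. LGMN, the asparaginyl endopeptidase that processes several cathepsin precursors, had 30.6 and 28.0 FPKM in the controls and 34.3 and 31.8 FPKM after MGH-CP1 and was not called (log2 fold change 0.17, adjusted p = 0.0587 from limma). CTSV, the closest relative of CTSL, was not called either (log2 fold change 0.29, adjusted p = 0.0615 from limma), and CTSG was listed at 0 in every library.

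Of the cystatins, the inhibitors of cysteine cathepsins, 6 of the 7 tested (of 9 listed) were called higher and 0 lower, where the shares over all genes were 27.1% and 23.8%, and their median log2 fold change was 0.56. CST3, the secreted general inhibitor, rose from 268 and 262 FPKM to 408 and 374 FPKM (log2 fold change 0.56, adjusted p = 1.28e-04 from limma), and the cytoplasmic CSTB by 0.52 on the log2 scale. The secreted cystatins CST1, CST2 and CST4 rose further, by 1.46, 1.73 and 1.52 on the log2 scale. CST1 was the most abundant of them, with 551 and 565 FPKM in the controls and 1655 and 1437 FPKM after MGH-CP1. These 3 genes are close relatives, and whether fragments were split between them in counting was not tested. Their sum was 690 and 715 FPKM in the controls and 2121 and 1826 FPKM after MGH-CP1. For each FPKM of cysteine cathepsin there were 2.21 and 2.25 FPKM of cystatin in the controls and 4.23 and 3.84 after MGH-CP1. Counting CST3 and CSTB alone, this ratio was 0.687 and 0.686 in the controls and 0.787 and 0.755 after treatment.

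Further genes tag cathepsins and deliver them to the lysosome. Of 18 genes of mannose 6-phosphate tagging and sorting, all tested, 6 were called higher, 2 lower and 10 were not called, with a median log2 fold change of 0.09. The share called higher was near the 27.1% of all genes and the share called lower was below the 23.8% of all genes, so the counts are no result about this list. Neither receptor for mannose 6-phosphate was called: M6PR had a log2 fold change of -0.13 (95% interval -0.28 to 0.01) and IGF2R one of 0.08 (95% interval -0.03 to 0.20). The catalytic subunits of the tagging enzyme, encoded by GNPTAB, were not called (log2 fold change -0.11, adjusted p = 0.253 from limma), whereas its GNPTG subunit rose by 0.43. Called higher in this list were also LRP1, an endocytic receptor (0.57), the adaptor subunit AP1S1 (0.36) and the adaptor GGA1 (0.29 on the log2 scale), and the 2 called lower were the adaptor subunits AP1B1 (-0.19) and AP1M1 (-0.15).

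Transcripts of several proteins that cathepsins process rose as well. PSAP, the precursor of the saposins, which CTSD cleaves, went from 320.4 and 327 FPKM to 489.9 and 466 FPKM (log2 fold change 0.56, adjusted p = 7.81e-05 from limma). GRN, whose product progranulin is cut into granulins by cathepsins, went from 173 and 168 FPKM to 234 and 227 FPKM (log2 fold change 0.43, adjusted p = 2.02e-04 from limma). With NEU1 and CD74 they make 4 of 5 partners and substrates called higher, against 27.1% of all genes, GLB1 being the other. PSAP, GRN, CD74 and LRP1, like CTSD, are on the study's list of commonly raised genes, which was drawn partly from these libraries. The count of 4 of 5 is therefore not independent of that list. Of the MiT/TFE factors, TFEB rose from 4.53 and 3.93 FPKM to 7.97 and 7.12 FPKM (log2 fold change 0.71, adjusted p = 4.85e-04 from limma) and TFE3 by 0.23 on the log2 scale. MITF fell by 0.25 (adjusted p = 0.0304 from limma), and TFEC reached at most 0.00591 FPKM and was not tested.

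**Figure D4:**
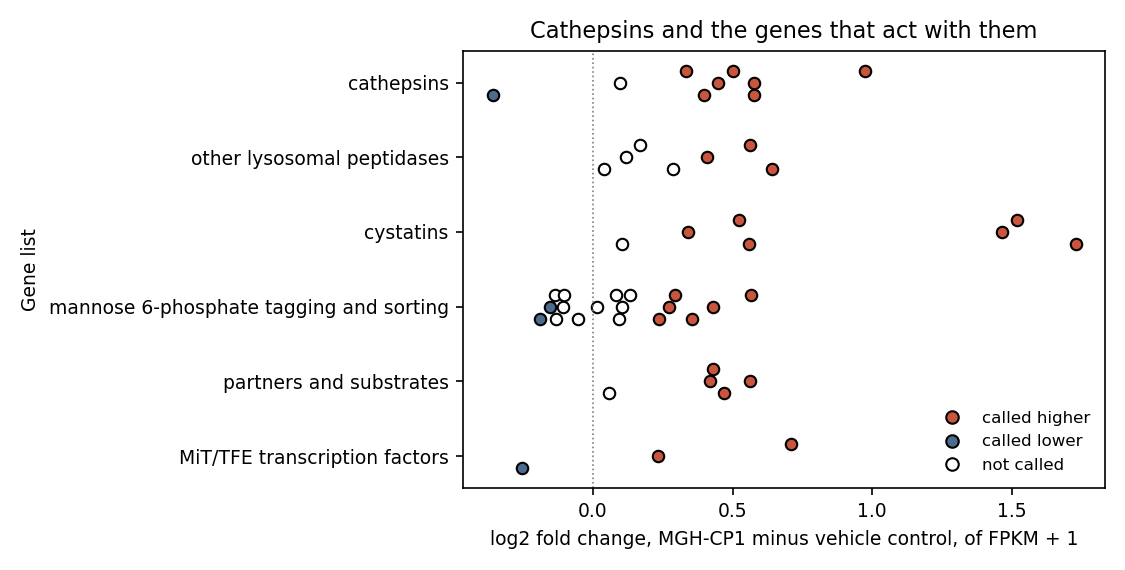
Log2 fold change after MGH-CP1 of each gene tested in the cathepsin list and in 5 lists of genes that act with them; red, called higher, blue, called lower, white, not called at an adjusted p of 0.05. The cathepsins lie between -0.36 and 0.97, the cystatins reach 1.73, and the sorting genes stay between -0.19 and 0.57.

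By the distance of centred log2(FPKM + 1) over the 4 libraries, the genes most like CTSD, the most abundant cathepsin, were ACADVL (distance 0.0215), CRELD1 (0.0515) and AHNAK2 (0.0524 on the log2 scale). ACADVL, a mitochondrial enzyme of fatty acid oxidation, had 96.2 and 105 FPKM in the controls and 205 and 191 FPKM after MGH-CP1, with the lower control and the higher treated value in the replicates numbered 1, as in CTSD. With 4 libraries such closeness describes a shared fold change and spread between replicates.

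When each library was left out in turn, CTSD stayed between 0.89 and 1.05, CTSL between 0.51 and 0.65, CTSF between 0.54 and 0.62 and CTSC between -0.41 and -0.31 on the log2 scale. Under the 14 alternative settings, each of the 8 called cathepsins was called in 13. When variance was not shared between genes, 0 cathepsins were called. For those 8 the adjusted p in limma then ran from 0.0524 for CTSB to 0.0886 for CTSC, and for CTSH it was 0.616. In that setting 4947 of the 12080 genes had an unadjusted p under 0.05.

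**Figure D5:**
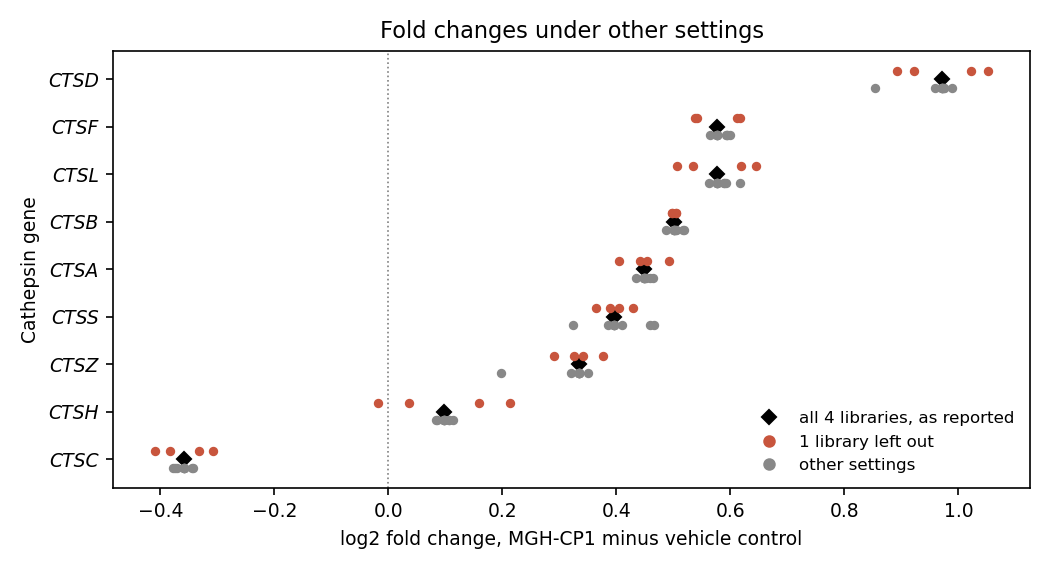
Log2 fold change of the 9 cathepsins tested, as reported (black diamonds), with 1 library left out (red) and under the other settings (grey). The values of CTSD lie between 0.85 and 1.05, apart from those of the other genes, and only those of CTSH lie on both sides of 0.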

How the data were processed

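RNA sequencing of 4 MDA-MB-231 libraries, 2 treated with MGH-CP1 and 2 with vehicle, was analysed from a gene table in FPKM deposited by the authors (paired-end reads of poly-T selected mRNA). Per the submitters' processing notes, CASAVA 1.8, STAR and hg19 were used; the counting tool, annotation and use of strand are not given in the sources used here. FPKM times gene length gave whole fragments for 100% of values (tolerance 0.01), from which the library totals were read. Because both treated libraries were shallower, depth and treatment cannot be told apart.

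The comparison used limma (version 3.58.1, under R 4.3.3), a two-sided moderated test with a variance trend, on log2(FPKM + 1) for genes with a mean of at least 1 FPKM. The p-values were adjusted by Benjamini-Hochberg over all genes tested, with a threshold of 0.05. Fold changes on this scale understate those of low genes, and ratios are of mean FPKM. The fit was tested on simulated data. Named genes were the 10 cathepsins, up to 4 called genes per direction with the largest change in each further list, every partner, substrate, MiT/TFE factor and treatment-check gene, and the 3 genes nearest to the most abundant cathepsin; LGMN, CTSV, CTSG, CSTB, GNPTAB, M6PR, IGF2R and the marker genes were named for their roles, some after their values were seen. The members and lists were chosen with earlier results of these data known. Promoter windows came from RefSeq (GRCh38.p14). Alternatives were another pseudocount, other filters, 3 scalings, other variance models, voom on recovered fragments, the replicate number as a block, and each library left out.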

Additional observations from a re-analysis of the deposited data

How the results depend on the processing

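The counts of 7 cathepsins called higher and 1 lower were obtained under 13 of the 14 alternatives; without variance shared between genes they were 0 and 0, 0 genes of the supporting lists were called in place of 24, and 9 genes were called higher and 4 lower of all tested. That alternative uses the spread of 2 libraries per group alone. Leaving out 1 library moved the cathepsin median between 0.43 and 0.49 on the log2 scale; CTSH ranged from -0.018, without MGH-CP1 replicate 2 (adjusted p = 0.889 from limma), to 0.21, and was not called under any alternative. With quantile normalization the log2 fold change of CTSZ was 0.20 in place of 0.33. With no filter on low values, 2280 genes were called higher and 1844 lower, against 3273 and 2869. The replicate numbers were shared by the groups. Over all genes tested, the difference between replicates 1 and 2 correlated at only 0.08 between the groups, so the numbers mark no shown pairing. With the replicate block, 7 cathepsins were called higher and 1 lower, and 26 genes of the supporting lists were called. Of these lists 18 genes were called with no filter and 19 to 22 with 1 library left out, the fewest without MGH-CP1 replicate 1. Depth limits CTSK, with 25 to 43 fragments, most.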
